A study of Mus musculus with 16 samples.

Results

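Intronic regions near a start site were the regions of accessible chromatin whose centre lay in an intron, at most 10 kb from the nearest transcription start site, with at most 50% of their bases soft-masked as repeats in the mm10 genome. They came from ATAC-seq, which reads out where Tn5 transposase can cut and tag DNA, and from joining touching or overlapping peaks of 8 libraries into 16566 combined regions. Of these, 1614 (9.74%) were such intronic regions, or 50.9% of the 3168 regions placed in introns. Promoters (1000 bp upstream to 100 bp downstream of a start site) and exons had been set aside first. A further 222 introns near a start site were left out for their masked bases. At the limit of distance, 72 regions at 9 to 10 kb were detected in a mean of 2.18 libraries, and 83 excluded introns at 10 to 11 kb in a mean of 1.99. At the limit of masking, 45 members held 40 to 50% masked bases, and 29 excluded introns held 50 to 60%.

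The libraries came from splenic B cells of C57BL/6 mice carrying CD23-Cre, which deletes floxed DNA in mature B cells. In the 4 Brg1 fl/+ libraries 1 allele of Smarca4, the gene for Brg1, was floxed, and in the 4 Brg1 fl/fl libraries both were, so the Brg1 fl/+ cells were not wild type. B cells of both genotypes had been activated in culture with LPS at 10 µg/mL and IL-4 at 20 ng/mL, and 50000 cells entered each library. The sample labels give 72 hours of activation, and the series design gives 96 hours. The number of mice is not given in the sources used here, and the deposited lists are named in pairs, 1 with 2 and 3 with 4 within a genotype. Summit heights at promoters varied between libraries of 1 genotype by 0.759 to 1.20 times the sampling noise, so p-values measure a spread that may be technical.

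Introns close to a start site hold many enhancers, short stretches of DNA where transcription factors bind and act on a promoter. Brg1 is an ATPase of the BAF (SWI/SNF) complex, which moves or evicts nucleosomes so that such DNA becomes accessible. Promoters often lie in CpG islands, whereas most enhancers are poor in CpG. In B cells, enhancers of this kind are bound by factors such as PU.1, RUNX and AP-1.

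The sequences of 3 regions are given first because they stand for the 3 patterns described here: a CpG-rich region found in all 8 libraries (Cdk8, chr5:146260967-146261167), a CpG-poor region found only in Brg1 fl/+ libraries (Sh2b3, chr5:121833955-121834155), and a region detected in all 8 libraries that was lower in Brg1 fl/fl (Sp100, chr1:85703654-85703854). Each is a window 100 bases to each side of the summit, in GRCm38 (mm10), plus strand, with the summit taken from the library that ranked the region best. Capitals mark letters of a searched motif: CTCF (CANNAGNGG, here on the minus strand) in Cdk8, and SP/KLF (GGGCGG) in the other two. A match is a run of letters and not a shown binding site.
Cdk8: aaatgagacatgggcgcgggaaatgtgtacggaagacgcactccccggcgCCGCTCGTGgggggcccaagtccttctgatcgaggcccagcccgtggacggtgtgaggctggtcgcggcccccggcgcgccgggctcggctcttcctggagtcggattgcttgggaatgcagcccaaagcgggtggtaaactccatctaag
Sh2b3: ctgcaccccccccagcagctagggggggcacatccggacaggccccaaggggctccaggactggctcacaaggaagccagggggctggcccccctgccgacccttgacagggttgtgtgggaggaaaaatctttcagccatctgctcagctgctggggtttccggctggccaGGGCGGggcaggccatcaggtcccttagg
Sp100: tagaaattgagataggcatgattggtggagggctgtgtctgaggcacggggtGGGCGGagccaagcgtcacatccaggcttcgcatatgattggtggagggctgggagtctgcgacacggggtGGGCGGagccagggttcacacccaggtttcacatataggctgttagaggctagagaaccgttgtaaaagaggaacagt

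The other sequences belong to regions that repeat themselves. Of these, 2 were in all 8 lists and had higher summits in Brg1 fl/fl, and Msh3 was listed only in Brg1 fl/fl: Dnah14 (chr1:181743472-181743672), Gm32624 (chr16:86820964-86821164) and Msh3 (chr13:92316358-92316558), with the same build, strand and centring. Capitals mark every second stretch of the best matching repeat length, counted from the first base, and the last stretch is incomplete. This length was 80 bases in Dnah14, 52 in Gm32624 and 39 in Msh3, and in Dnah14 it holds a shorter, nearly identical repeat more than once. In Msh3, where the unit length varies, neighbouring stretches matched at 59.0% of bases over the region, against 98.8% in Dnah14 and 79.1% in Gm32624.
Dnah14: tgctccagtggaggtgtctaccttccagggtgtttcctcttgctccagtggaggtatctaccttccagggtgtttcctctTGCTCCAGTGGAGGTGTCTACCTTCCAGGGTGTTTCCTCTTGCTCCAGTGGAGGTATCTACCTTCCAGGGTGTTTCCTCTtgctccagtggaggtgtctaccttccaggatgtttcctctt
Gm32624: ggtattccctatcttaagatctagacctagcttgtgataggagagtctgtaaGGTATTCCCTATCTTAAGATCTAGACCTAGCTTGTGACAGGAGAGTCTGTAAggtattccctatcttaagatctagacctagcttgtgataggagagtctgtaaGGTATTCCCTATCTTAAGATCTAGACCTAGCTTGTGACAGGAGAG
Msh3: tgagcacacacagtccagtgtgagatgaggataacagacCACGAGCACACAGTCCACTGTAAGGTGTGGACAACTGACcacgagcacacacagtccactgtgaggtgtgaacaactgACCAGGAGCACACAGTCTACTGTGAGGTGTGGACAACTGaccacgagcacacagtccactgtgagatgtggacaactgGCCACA

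Most of the intronic regions lay downstream of a start site of their own gene. Of the 1614, 1127 (69.8%) were downstream of the nearest start site, 1273 (78.9%) had it in their host gene, and 838 (51.9%) lay in the first intron of the host. The host was protein-coding for 1411 (87.4%), and there were 1413 host genes, 24 of them with at least 3 regions. The most in 1 gene was 6, in Gm20388. The regions had a median width of 401 bp and a median distance of 2834.5 bp to the start site. Their median CpG ratio (observed over expected CpG) was 0.313, between 0.817 for the 9330 promoters and 0.213 for the 984 introns over 10 kb away. Distance and CpG content went together: the median ratio was 0.705 in the 443 regions within 1 kb, 0.287 in the 234 at 1 to 2 kb, 0.230 in the 427 at 2 to 5 kb and 0.239 in the 510 at 5 to 10 kb. Part of the near group touched promoters, since 310 of the 1614 regions (19.2%) reached into a promoter window and 245 covered a start site.

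Few of the intronic regions were found in every library. A region counted as detected when a peak of the list overlapped it by at least 1 bp. Of the 1614, 791 were detected in 1 library, 338 in 2 and 113 in all 8. The 113 had a median CpG ratio of 0.803 and a median width of 739 bp, against 0.269 and 299 bp for those in 1 library. Of the 113, 75 lay within 1 kb of a start site and 73 reached a promoter window. The deepest Brg1 fl/+ list decided much of the rest: 598 regions were seen only in Brg1 fl/+ replicate 1, and 963 (59.7%) only in replicates 1 and 2 or either of them. Absence from a list means only that no peak was called there in that library, and does not show that the DNA was closed.

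The share of the 1614 regions with a peak was 84.6%, 49.1%, 14.6% and 20.2% in Brg1 fl/+ replicates 1 to 4 and 25.5%, 13.4%, 21.9% and 22.7% in Brg1 fl/fl replicates 1 to 4. The 2 highest values were both Brg1 fl/+, and the other 2 Brg1 fl/+ libraries lay inside the Brg1 fl/fl range. The means were 42.1% ± 32.1 and 20.9% ± 5.20 (SD, n = 4 each), and the difference of -21.2 points did not exceed the library spread (exact permutation test, two-sided, p = 0.371, where the 70 possible assignments allow no p below 0.0286). Without Brg1 fl/+ replicate 1 the difference was -11.4 points, and only 974 regions were left.

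**Figure D1:**
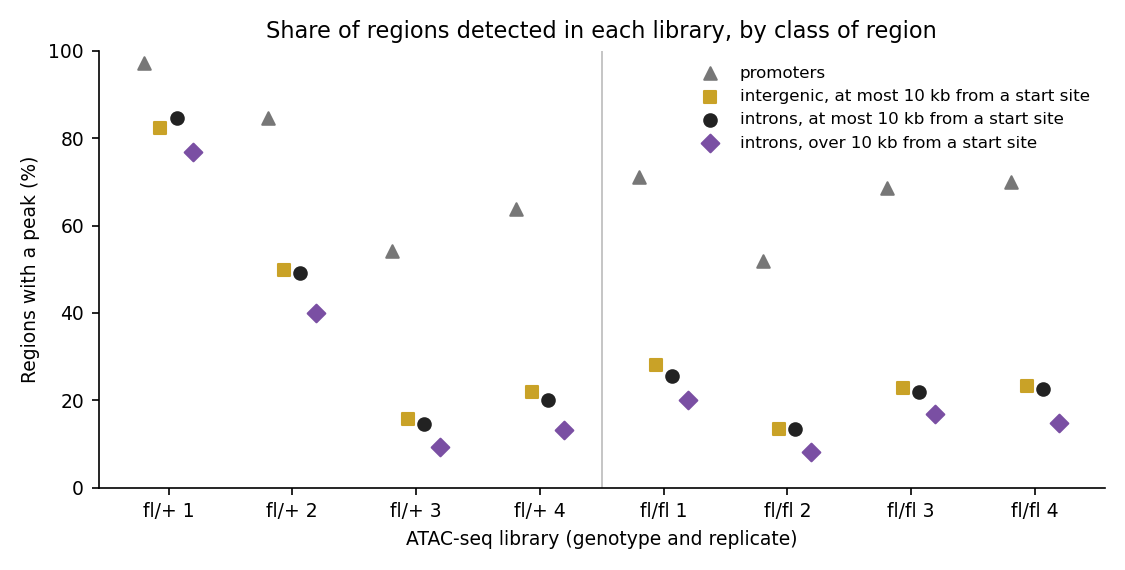
Percent of regions with a peak (vertical axis) in each of the 8 libraries (horizontal axis) for 4 classes of region. In every library promoters lay highest and introns over 10 kb from a start site lowest, and the intronic regions near a start site ran from 84.6% in Brg1 fl/+ replicate 1 to 13.4% in Brg1 fl/fl replicate 2.

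Within a library the intronic regions were detected less often than promoters in 8 of 8 libraries, by a mean of -38.6 points (exact sign-flip test, p = 0.0078, the smallest possible), and more often than introns over 10 kb away in 8 of 8, by 6.54 points (exact sign-flip test, p = 0.0078). Against intergenic regions within 10 kb of a start site the mean difference was -0.652 points (exact sign-flip test, p = 0.242), which did not pass the threshold. The gap to promoters was -32.8 ± 13.9 points for Brg1 fl/+ libraries and -44.5 ± 4.03 for Brg1 fl/fl libraries (SD, n = 4 each). This difference of -11.7 points did not pass the threshold of 0.05 (exact permutation test, p = 0.0857). The regions held 6.16% ± 2.62 (SD, n = 4) of the peaks of a Brg1 fl/+ list and 4.13% ± 0.446 (SD, n = 4) of a Brg1 fl/fl list (exact permutation test, p = 0.229). Background depth was 4.24 fragments per kb for Brg1 fl/+ and 5.62 for Brg1 fl/fl (exact permutation test, p = 0.314), and the median number of fragments at the summits of the intronic regions ranged from 13 to 18 over the libraries.

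By library counts, 1186 regions (73.5%) were found in fewer libraries of Brg1 fl/fl than of Brg1 fl/+ and 216 (13.4%) in more, where all combined regions gave 47.2% and 16.7%. The shares were not particular to these regions. Introns over 10 kb away gave 75.2% and 17.8%, and intergenic regions near a start site 72.9% and 13.8%. Promoters gave 36.7% and 10.9%. Without Brg1 fl/+ replicate 1 the counts of the intronic regions near a start site were 579 and 281 of 974. The lists held from 6271 to 14614 peaks, and the longest 2 were both Brg1 fl/+. When each list was cut to its best 6271 peaks by q, 414 intronic regions were left, of which 166 (40.1%) had fewer Brg1 fl/fl libraries and 136 (32.9%) more, beside 23.2% and 24.8% of all regions. Detection was then 48.3% ± 4.36 for Brg1 fl/+ and 44.7% ± 5.30 for Brg1 fl/fl (SD, n = 4 each, exact permutation test, p = 0.343).

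The intronic regions were not of 1 kind, and 204 of them (12.6%) repeated their own sequence. A region was called self-repeating when under 80% of its 15-base words were distinct, a limit set after the data were seen. The 204 had a median of 20.8% distinct words, a CpG ratio of 0.0288 and no masked bases at the median, so the masking limit had kept them in. The best matching repeat length, which can span more than 1 unit, had a median of 41 bp and a median match of 91.3% between neighbouring stretches. Of their 32-base words, a median of 75.7% occurred elsewhere in the genome, against a median of 0% in the other 1410 regions, so short reads from them can match several places.

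Most self-repeating regions had a peak in more Brg1 fl/fl libraries, and most of the rest in fewer. Of the 204, 127 (62.3%) had a peak in more Brg1 fl/fl libraries and 45 (22.1%) in fewer, where all 1743 self-repeating combined regions gave 63.7% and 16.6%, so the share was close to that of self-repeating regions anywhere. They made up 81 of the 111 intronic regions with no Brg1 fl/+ peak. Self-repeating regions made up 757 of the 1230 such regions among all combined regions. In introns over 10 kb away they made up 118 of 127, and in intergenic regions near a start site 43 of 71. Of the other 1410 regions, 1141 (80.9%) had fewer and 89 (6.31%) more, where all regions with at least 80% distinct words gave 50.8% and 11.1%. Among the intronic regions that a library detected, 6.37%, 7.31%, 16.2% and 13.5% were self-repeating in Brg1 fl/+ replicates 1 to 4 and 30.8%, 27.6%, 24.6% and 23.0% in Brg1 fl/fl replicates 1 to 4. Every Brg1 fl/fl library lay above every Brg1 fl/+ library, and this held within libraries 1 and 2 and within libraries 3 and 4. The means of 10.8% ± 4.76 and 26.5% ± 3.48 (SD, n = 4 each) differed by 15.7 points (exact permutation test, p = 0.0286, the smallest possible). This share also depends on how many other regions a library detected. Of the 204 themselves, 42.6%, 28.4%, 18.6% and 21.6% were detected in Brg1 fl/+ replicates 1 to 4 and 62.3%, 29.4%, 42.6% and 41.2% in Brg1 fl/fl replicates 1 to 4, so that the groups overlapped. The means were 27.8% ± 10.7 and 43.9% ± 13.6 (SD, n = 4 each, exact permutation test, p = 0.143). The share of deep introns that was self-repeating was 23.9%, that of near intergenic regions 10.1% and that of promoters 0.439%. The part that copies elsewhere in the genome play in this difference was not tested.

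**Figure D2:**
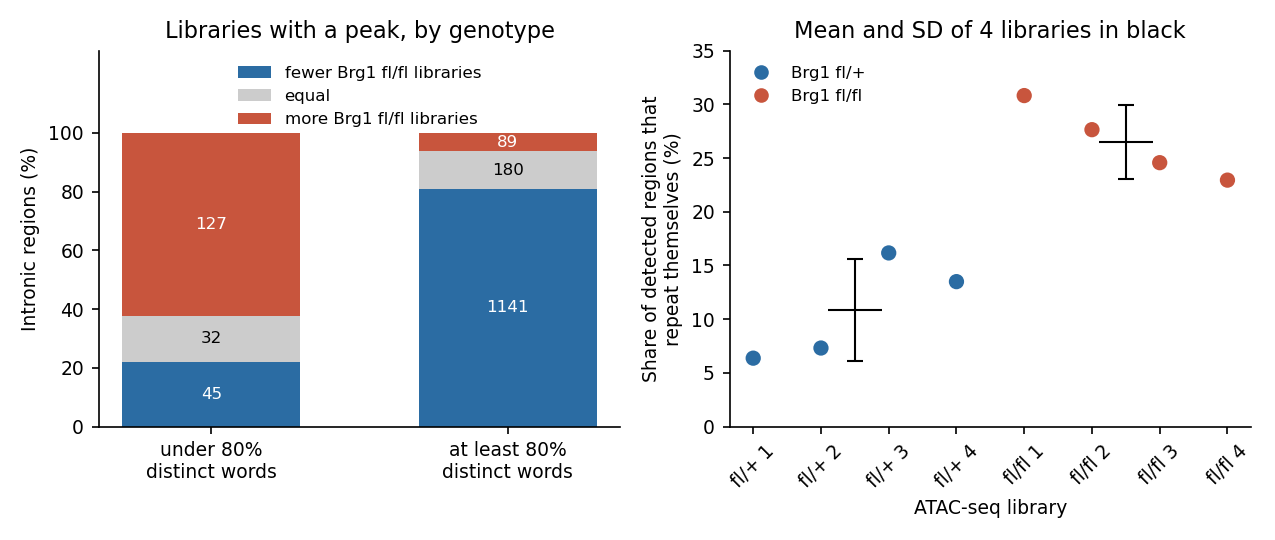
Left, percent of intronic regions (vertical axis) with a peak in fewer, equally many or more libraries of Brg1 fl/fl than of Brg1 fl/+, for regions under and at least 80% distinct words, with counts in the bars. Right, the share of detected regions that repeat themselves in each library, with the mean and SD of 4 in black. All 4 Brg1 fl/fl libraries (23.0% to 30.8%) lay above all 4 Brg1 fl/+ libraries (6.37% to 16.2%).

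In order to compare the rest at equal list length, peaks in self-repeating regions were removed and each list was then cut to its best 5568 peaks. This comparison was made after the data were seen. The 204 intronic regions removed had a median CpG ratio of 0.0288, and 127 of them were in more Brg1 fl/fl libraries and 45 in fewer. Taking them out by itself moves the difference in CpG-poor groups of regions toward a fall in Brg1 fl/fl. The size of the fall therefore depends on this choice. Of 280 intronic regions, 99 (35.4%) were in fewer Brg1 fl/fl libraries and 77 (27.5%) in more, beside 21.7% and 22.9% of all regions. Over the 280 the genotypes did not differ beyond the spread (53.4% ± 2.98 against 49.7% ± 4.79, SD, n = 4 each, exact permutation test, p = 0.257). With both steps, the CpG-poor regions among them did differ. Of the 121 regions with a CpG ratio of at most 0.6, 38.8%, 47.9%, 49.6% and 41.3% had a peak in Brg1 fl/+ replicates 1 to 4 and 24.8%, 33.9%, 24.8% and 28.9% in Brg1 fl/fl replicates 1 to 4. The groups did not overlap, in all libraries or within either pair of replicate numbers named together. The means were 44.4% ± 5.16 and 28.1% ± 4.32 (SD, n = 4 each), a fall of 16.3 points (exact permutation test, p = 0.0286, the smallest possible, Benjamini-Hochberg adjusted p = 0.0476 over 15 overlapping groups of regions). Leaving out 1 library at a time gave -18.3 to -14.6 points. The adjusted p was the same for every group at the smallest exact p, so it depends on how many overlapping groups were listed. Other settings tried were outside the adjustment.

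The 159 CpG-rich regions were detected at 60.2% ± 4.02 for Brg1 fl/+ and 66.2% ± 5.37 for Brg1 fl/fl (SD, n = 4 each, exact permutation test, p = 0.143). The CpG-poor minus CpG-rich difference was -15.8 ± 6.93 points for Brg1 fl/+ and -38.1 ± 2.51 for Brg1 fl/fl (SD, n = 4 each). It was larger in every Brg1 fl/fl library, by 22.3 points on average (exact permutation test, p = 0.0286). With list length fixed, fewer peaks in some regions leave places for others, so this contrast is not independent of the fall. With limits of 50% and 95% distinct words in place of 80% the fall in CpG-poor regions was 16.8 and 15.2 points, at the same exact p, and the adjusted p was 0.0476 and 0.0536, the latter no longer past the threshold (exact permutation tests). Without the removal of self-repeating regions the difference was -7.31 points (exact permutation test, p = 0.257), with the removal alone, at full list length, it was -30.9 points (p = 0.114), and in the lists as deposited -23.4 points (p = 0.314), so the call was made only with both steps. The difference between CpG-poor and CpG-rich regions differed between genotypes by -8.71 points (p = 0.2) at equal length alone, by -16.1 (p = 0.0571) with the removal alone and by -9.13 (p = 0.0857) in the lists as deposited, in the same exact permutation test, and was called only with both steps too.

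Distance, which went together with CpG content, gave a similar division. In the same lists the 54 regions at 2 to 5 kb were detected at 47.7% ± 3.16 for Brg1 fl/+ and 29.6% ± 6.05 for Brg1 fl/fl (SD, n = 4 each, exact permutation test, p = 0.0286). The 45 regions at 5 to 10 kb were at 43.9% ± 8.58 and 27.2% ± 6.38 (SD, n = 4 each, exact permutation test, p = 0.0571), and the 36 at 1 to 2 kb at 47.2% ± 11.3 and 43.1% ± 6.61 (exact permutation test, p = 0.657). In the 145 regions within 1 kb Brg1 fl/fl was higher, at 65.9% ± 6.28 against 60% ± 1.95, a difference of 5.86 points (SD, n = 4 each, exact permutation test, p = 0.0286). Because list length was fixed, this rise is not independent of the falls further away. Without Brg1 fl/fl replicate 2, the highest at 75.2%, the difference was 2.76 points, and the exact p was 0.229 and 0.0857 with limits of 50% and 95% distinct words. All regions over 1 kb fell by 13.9 points, from 46.3% ± 5.75 to 32.4% ± 4.12 (SD, n = 4 each, exact permutation test, p = 0.0286). Within those over 1 kb the 98 CpG-poor ones fell by 16.8 points (exact permutation test, p = 0.0286), and the 37 CpG-rich ones differed by -6.08 points (exact permutation test, p = 0.4). The Benjamini-Hochberg adjusted p of each call in this paragraph was 0.0476 (exact permutation tests), and 0.0536 for the falls at 2 to 5 kb and over 1 kb with a limit of 95%. At equal length without the removal these differences were -9.95 points (p = 0.114) and -6.22 points (p = 0.314) in the exact permutation test, and no longer called.

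The division was not particular to introns near a start site. The 80 introns over 10 kb away fell by 23.1 points, the 81 CpG-poor intergenic regions near a start site by 20.7, and the 358 CpG-poor promoters by 13.8 (exact permutation test, p = 0.0286 for each), while all 6424 promoters differed by 0.634 points (exact permutation test, p = 0.343). At equal length without the removal the difference in deep introns was -9.97 points and no longer called (exact permutation test, p = 0.114). In that setting CpG-poor intergenic regions near a start site differed by -11.7 points and CpG-poor promoters by -13.0. Both kept the smallest exact p but did not pass after adjustment (exact permutation test, p = 0.0286, Benjamini-Hochberg adjusted p = 0.214). The intronic regions near a start site were detected more often than deep introns by 5.27 ± 3.94 points for Brg1 fl/+ and 24.7 ± 2.11 for Brg1 fl/fl (SD, n = 4 each, exact permutation test, p = 0.0286). The direction of this difference turned with the processing: it was -1.37 points (p = 0.314) in the lists as deposited and 6.41 points (p = 0.114) at equal list length alone, in the exact permutation test.

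**Figure D3:**
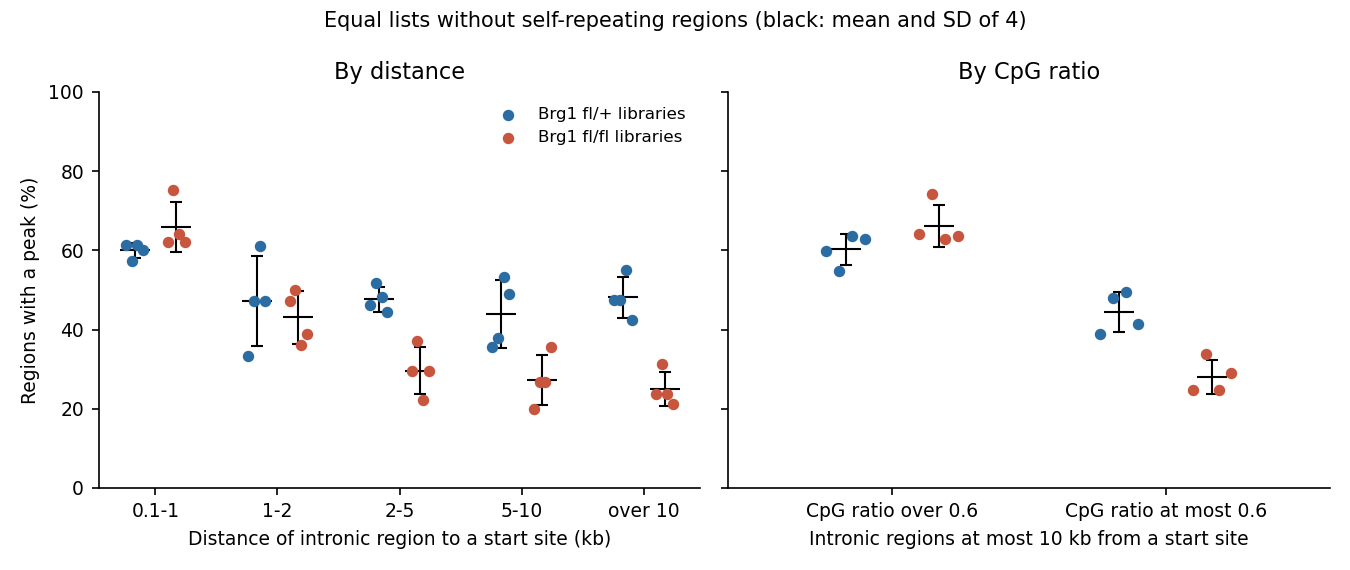
Percent of intronic regions with a peak (vertical axis) after removal of self-repeating regions and with 5568 peaks per library, by distance to a start site (left) and, for regions at most 10 kb away, by CpG ratio (right). Points are libraries and black marks are the mean and SD of 4; CpG-poor regions sat at 38.8% to 49.6% in Brg1 fl/+ and at 24.8% to 33.9% in Brg1 fl/fl.

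In order to see which sequences were detected, the letters of 18 motifs were searched on both strands within 100 bp of the summits. The intronic regions held more letters of factors known from enhancers than promoters did: AP-1 (TGANTCA) in 9.11% against 2.33%, RUNX (TGTGGTT) in 7.68% against 2.00%, PU.1 (GAGGAAGT) in 5.70% against 2.37% and ETS-IRF (GGAANNGAA, which can overlap PU.1 letters) in 8.30% against 4.15%. They held fewer of those known from promoters: SP/KLF in 24.2% against 67.9%, NRF1 (GCGCANGCG) in 3.10% against 15.3%, NFY (CCAATNAG) in 3.16% against 10.2% and ETS (CCGGAAGT) in 1.92% against 8.24%. Over all combined regions, AP-1 letters were in 4.80%, RUNX in 3.97%, PU.1 in 2.98% and SP/KLF in 47.8%. The higher shares than in promoters were not particular to introns near a start site. AP-1 letters were in 11.7% of deep introns and 11.1% of near intergenic regions, both above the intronic regions. RUNX letters were in 9.35% and 7.13% of these classes, and PU.1 letters in 4.98% and 3.57%. ETS-IRF letters were in both classes less often than in the intronic regions and more often than in promoters.

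AP-1 letters lay in 9.81%, 8.32%, 5.96% and 5.83% of the detected intronic regions in Brg1 fl/+ replicates 1 to 4 and in 3.88%, 2.76%, 2.54% and 3.83% in Brg1 fl/fl replicates 1 to 4. RUNX letters lay in 8.64%, 6.81%, 6.38% and 5.52%, and in 3.64%, 1.38%, 3.67% and 3.55%. For both motifs every Brg1 fl/fl library lay below every Brg1 fl/+ library. The mean shares were 7.48% ± 1.93 and 3.25% ± 0.700 for AP-1, 6.84% ± 1.31 and 3.06% ± 1.12 for RUNX, 7.07% ± 1.78 and 4.36% ± 0.481 for ETS-IRF and 13.8% ± 2.14 and 9.76% ± 0.537 for CTCF (SD, n = 4 each). These 4 motifs had p = 0.0286 in the exact permutation test, the smallest possible, and none of the 18 passed after adjustment (Benjamini-Hochberg adjusted p = 0.129). AP-1 and RUNX had the same direction and unadjusted p without self-repeating regions at equal list length, at 4.32% against 2.11% and 5.47% against 2.54% (exact permutation test, p = 0.0286, adjusted p = 0.129). In that setting ETS-IRF and CTCF did not (exact permutation test, p = 0.114 and 0.0571), while SP/KLF was higher in Brg1 fl/fl by 4.66 points and NFY differed by -2.26 points at p = 0.0286, again with an adjusted p of 0.129. In the lists as deposited the SP/KLF share was 35.9% ± 8.14 and 40.1% ± 3.91 (SD, n = 4 each, exact permutation test, p = 0.4), and the NRF1 share 6.64% ± 2.54 and 9.15% ± 1.85 (p = 0.171).

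**Figure D4:**
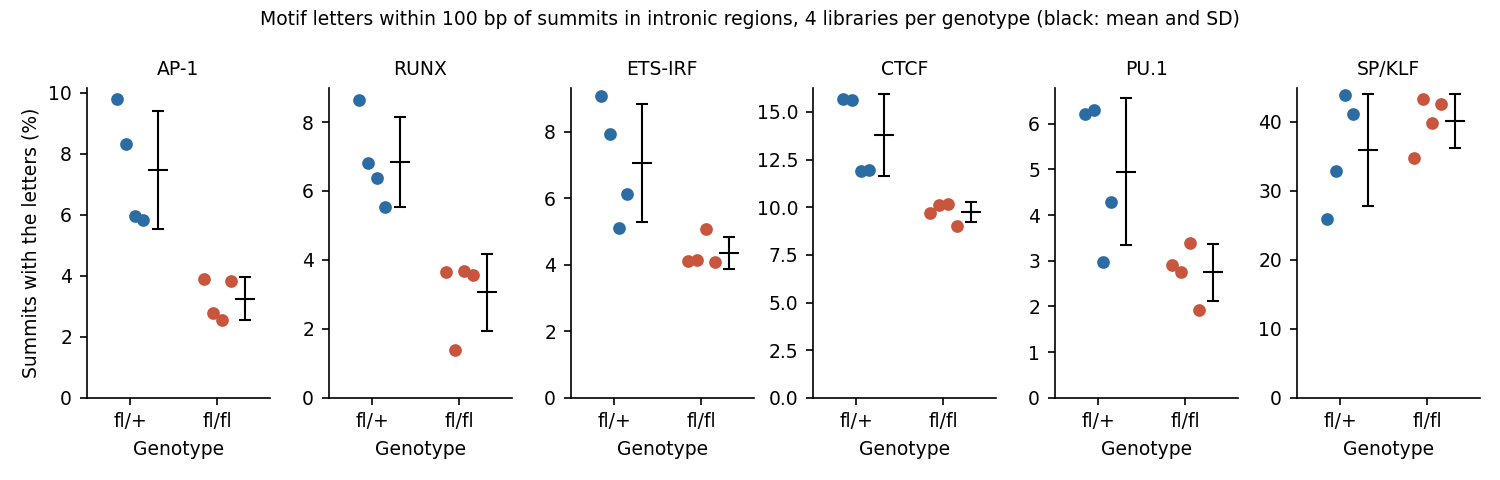
Percent of summits in detected intronic regions with the letters of 6 motifs (vertical axes, each from 0) in the 4 libraries of each genotype, with the mean and SD in black. For AP-1, RUNX, ETS-IRF and CTCF the genotypes did not overlap, and PU.1 and SP/KLF did.

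Regions found in all 4 libraries of 1 genotype and none of the other were few. There were 18 (1.12%) in Brg1 fl/+, where all combined regions gave 0.404%, and 1 (0.0620%) in Brg1 fl/fl, where all gave 0.169%. Intergenic regions near a start site gave 1.11% and 0.369%, and introns over 10 kb away 0.610% and 0.407%. The count of 18 became 47 without Brg1 fl/+ replicate 3 and 3 when only peaks with −log10 q from 10 up were kept. The count of 1 became 2 to 7 without any 1 Brg1 fl/+ library or without Brg1 fl/fl replicate 2 or 4. The best ranked was in intron 1 of 8 of Sh2b3, an adaptor that restrains cytokine signaling (chr5:121833902-121834191), with 77, 68, 30 and 45 fragments at the summit in Brg1 fl/+ replicates 1 to 4. Kifc3, a kinesin motor, held one in intron 3 of 4 (chr8:95127433-95128003) with 33, 13, 11 and 19 fragments. In Tor4a, intron 1 (chr2:25195792-25196911), the summits had 58, 40, 14 and 29 fragments. The regions of Tor4a and Fam129a also covered a start site. All of these were called in each Brg1 fl/+ library, the shallow replicate 3 included, and in no Brg1 fl/fl library.

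Dnmt3a, a DNA methyltransferase, held such a region in intron 4 of 22 (chr12:3870939-3871389) with 58, 33, 12 and 23 fragments. Fam129a held one in intron 1 of 13 (chr1:151571369-151572408) with 30, 13, 11 and 15. Stat6, the factor that transmits the IL-4 signal, ranked 14th of the 18, with 21, 14, 8 and 12 fragments in intron 1 of 21 (chr10:127643595-127644076), 834 bp downstream of a start site of the gene. The only region of the reverse kind lay in intron 8 of 23 of Msh3, a mismatch repair gene (chr13:92316117-92316760), with 12, 8, 12 and 8 fragments in Brg1 fl/fl replicates 1 to 4. It was self-repeating, with 53.0% distinct words.

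Summit heights could be compared only in regions detected in all 8 libraries, 113 intronic ones among 4583. These are the most open regions, so the test says nothing on those lost from a list. The 2 genotypes were compared by limma. On scaled log2 summit fragments, 7 of the 113 (6.19%) were lower in Brg1 fl/fl and 16 (14.2%) higher, beside 5.54% and 6.66% of all regions tested (Benjamini-Hochberg adjusted p under the threshold). The median log2 difference was 0.01 over the intronic regions and 0.00 over all. Of the 12 self-repeating regions tested, 8 were higher and 1 lower, with a median of 1.01. Of the remaining 101 intronic regions tested, 8 (7.92%) were higher and 6 (5.94%) lower, with a median of -0.01. Without Brg1 fl/fl replicate 2 the lower ones were 11, and without replicate 1 or 3 they were 4. On the deposited fold without scaling 4 were lower and 0 higher, and on percent ranks 0 and 0. Among all regions tested, 115 of 160 self-repeating ones were higher and 2 lower. Of the 4423 others, 190 (4.30%) were higher and 252 (5.70%) lower.

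Sp100, which encodes a protein of nuclear bodies, had the largest fall. Its region in intron 17 of 19 (chr1:85703530-85704113), 380 bp downstream of a start site, had 98, 63, 24 and 41 fragments in Brg1 fl/+ replicates 1 to 4 and 19, 9, 20 and 20 in Brg1 fl/fl replicates 1 to 4. After scaling for depth the groups did not overlap, and the log2 difference was -1.47 (SE 0.17, limma adjusted p = 1.1e-07). The antisense gene Gm26759 held a region in intron 2 of 2 (chr8:126583988-126584866) with 62, 45, 20 and 33 against 17, 13, 17 and 20 fragments, a log2 difference of -1.01 (SE 0.19, limma adjusted p = 0.00042). In Mrps27, which encodes a protein of the mitochondrial ribosome, the region in intron 2 of 10 (chr13:99353077-99353490) had 100, 70, 25 and 48 against 32, 24, 28 and 23 fragments. Its log2 difference was -0.88 (SE 0.17, limma adjusted p = 0.00069), again with no overlap after scaling.

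In Slc6a9, a glycine transporter gene, the region in intron 2 of 14 (chr4:117836166-117836725) had 57, 37, 20 and 33 against 30, 10, 18 and 25 fragments. The log2 difference was -0.70 (SE 0.19, limma adjusted p = 0.012). Cdk8, the kinase of the Mediator complex, held the best ranked of all the intronic regions in intron 2 of 12 (chr5:146260984-146261364), with 328, 217, 122 and 200 against 195, 89, 167 and 164 fragments. It was lower by a smaller amount (log2 difference -0.32, SE 0.11, limma adjusted p = 0.046). The regions of Oxsr1, a stress kinase, and Oma1, a mitochondrial protease, had adjusted p-values of 0.045 and 0.046 in limma but overlapped between genotypes after scaling.

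Of the 16 regions that were higher in Brg1 fl/fl, 8 repeated themselves. Dnah14, an axonemal dynein gene, held one in intron 56 of 83 (chr1:181743009-181743836) with 27, 17, 10 and 19 fragments in Brg1 fl/+ and 63, 32, 38 and 44 in Brg1 fl/fl, a log2 difference of 1.46 (SE 0.19, limma adjusted p = 1.1e-06). Only 10.4% of its words were distinct. In the lincRNA gene Gm32624 (chr16:86820784-86821227, intron 1 of 3) there were 23, 18, 14 and 18 against 44, 26, 35 and 46 fragments, a log2 difference of 1.18 (SE 0.20, limma adjusted p = 0.00013), with 18.8% distinct words. The self-repeating regions of D5Ertd579e and Uxs1 rose by 1.13 and 1.28 on the log2 scale (SE 0.21 and 0.26, limma adjusted p = 0.00025 and 0.00089), and at Uxs1 Brg1 fl/fl replicate 2 stood above the other 3.

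Cldn34d, a claudin gene on the X chromosome, stood at the limit of 80% distinct words. Its region (chrX:76598571-76599124) had 120, 88, 56 and 71 fragments in Brg1 fl/+ against 186, 90, 176 and 145 in Brg1 fl/fl, and a log2 difference of 0.98 (SE 0.12, limma adjusted p = 1.9e-07). In a region of ordinary sequence in intron 1 of 5 of Mnt, which encodes a repressor that pairs with Max, there were 99, 66, 30 and 41 against 75, 46, 85 and 82 fragments, a log2 difference of 0.54 (SE 0.12, limma adjusted p = 0.0038). Cenps, Nab2, Spop and Ctps, with ordinary sequence too, rose by 0.65, 0.51, 0.41 and 0.39 on the log2 scale (SE 0.18, 0.14, 0.13 and 0.13, limma adjusted p = 0.016, 0.017, 0.038 and 0.044). These, Mnt and Oma1 were named after their values were seen.

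**Figure D5:**
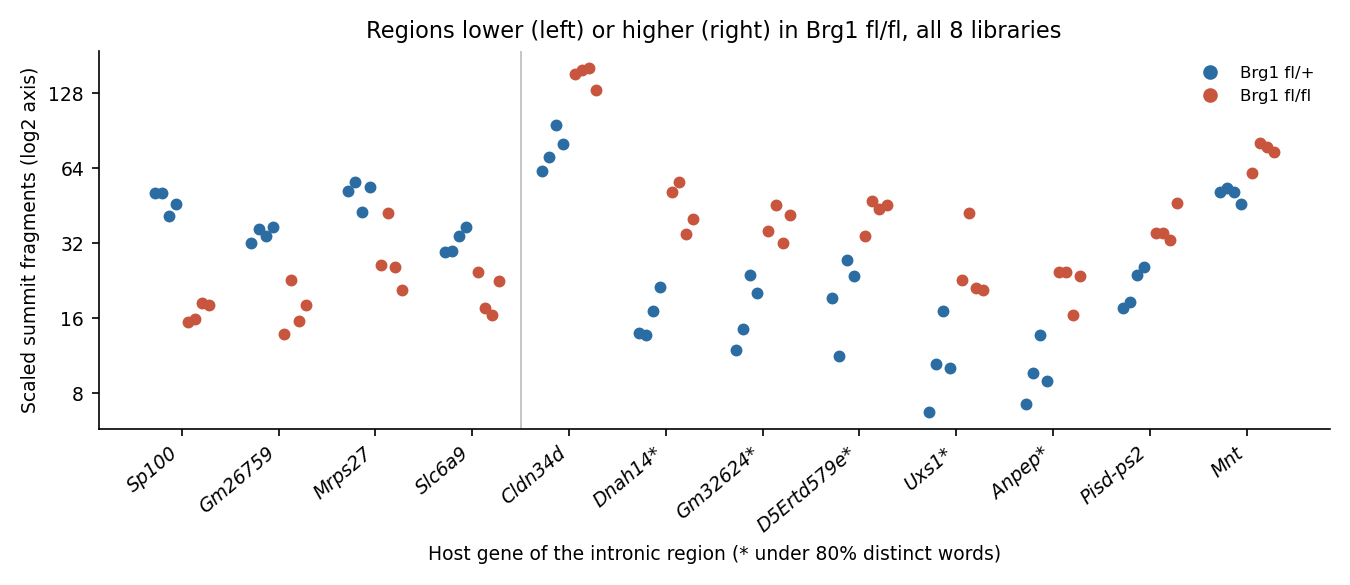
Scaled summit fragments (vertical axis, log2 scale) in the 8 libraries for regions lower (left of the line) or higher (right) in Brg1 fl/fl, named by host gene, with a star where under 80% of the words were distinct. None of the 12 regions shown overlapped between genotypes after scaling.

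Other regions that ranked among the best in all 8 lists did not pass the test: Clec11a, Cirbp, 6720427I07Rik, Gm26745, Chrac1, Gm36584 and Crebrf had log2 differences from -0.16 to 0.17 (limma adjusted p from 0.381 to 0.978). Of these, Cirbp, an RNA-binding protein induced by cold, lay in a region of 904 bp that covered a start site, as did those of Chrac1, Crebrf and 6720427I07Rik.

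Lists of genes of B cell biology showed how many of these regions lie in immune genes. Among 24 B cell transcription factors, 8 hosted 16 regions, of which 15 were in fewer Brg1 fl/fl libraries and none in more. In the lists as deposited all combined regions gave 47.2% and 16.7%, and the intronic regions near a start site as a whole 73.5% and 13.4%. The counts of the other gene lists in the lists as deposited stand against these same shares. In Mef2c the best region, in intron 7 of 10, had 41, 26, 8 and 14 fragments in Brg1 fl/+ and was called in 1 Brg1 fl/fl library, with 11. Regions in Ikzf3, Pou2f2 and Bach2 were each called in Brg1 fl/+ replicates 1 and 2 alone, the pair with the longest lists. With 6271 peaks per library only 2 regions of this list remained, both with fewer Brg1 fl/fl libraries. At that length all regions gave 23.2% with fewer and 24.8% with more, and the intronic regions near a start site 40.1% and 32.9%. The counts of every gene list at 6271 peaks stand against these shares.

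Among 22 genes of B cell receptor signaling, 11 hosted 15 regions, of which 13 had fewer Brg1 fl/fl libraries and none more. The region of Nfatc1, a factor activated by calcium, was in all 8 lists, with a log2 difference of 0.57 (SE 0.20, limma adjusted p = 0.059). Ptpn6, the phosphatase SHP-1, was called in 4 Brg1 fl/+ and 3 Brg1 fl/fl libraries, and the kinase Syk in 3 and 1. At 6271 peaks per library the list had 4 regions, 1 with fewer and 1 with more Brg1 fl/fl libraries.

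For TLR4 and NF-kB, the pathway of LPS, 5 of 19 genes hosted 7 regions, 6 with fewer and none with more. Bcl3, a nuclear IkB protein, was called in 4 Brg1 fl/+ libraries (78, 42, 18 and 33 fragments) and in 3 Brg1 fl/fl libraries (25, 18 and 23). For IL-4 and STAT6, 3 of 10 genes hosted 3 regions, all with fewer: Stat6, and in 1 library each Fcer2a, which encodes CD23, and Jak1. For costimulation and activation, 4 of 16 genes hosted 4 regions, and for homing and migration 3 of 14 hosted 3, again all with fewer. Ccr7, the receptor that guides lymphocytes to lymphoid tissue, was called in Brg1 fl/+ replicates 1, 2 and 4 (25, 24 and 17 fragments) and in no Brg1 fl/fl library. At 6271 peaks per library each of these 4 lists held 1 region, with fewer Brg1 fl/fl libraries.

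For the cell cycle, 4 of 25 genes hosted 5 regions, 2 with fewer and 2 with more Brg1 fl/fl libraries, and at 6271 peaks the 2 left both had more. The region of E2f2, an activator of S phase genes, was called in 3 Brg1 fl/+ libraries (33, 19 and 18 fragments) and in 4 Brg1 fl/fl libraries (28, 11, 14 and 23). The region of Cdkn1a, the cyclin-dependent kinase inhibitor p21, was called in 2 and 3. Among 22 subunits of BAF and PBAF, 3 hosted 3 regions, with 1 fewer, 1 more and 1 equal. That of Bcl7b covered a start site, was in all 8 lists and had a log2 difference of -0.05 (SE 0.14, limma adjusted p = 0.873).

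Promoters of B cell genes were checked as labels of the cells. Ms4a1 (CD20) and Pax5 had a promoter peak in 8 of 8 libraries and Ebf1 in 6, whereas Cd79a had one in 1 library and Cd79b and Cd22 in 0. No T cell, myeloid, NK or erythroid marker of the 15 tested had a promoter peak. Of plasma cell genes, Sdc1 had one in 7 libraries, Xbp1 in 6 (2 Brg1 fl/+ and 4 Brg1 fl/fl) and Jchain in 0.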

How the data were processed

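ATAC-seq peak lists of 8 libraries were analysed, grouped by the genotype and replicate number of the sample labels. Per the authors, Bowtie2 placed the reads on mm10 and MACS2 called the peaks of each library. Versions and options are not given in the sources used here. For each peak the deposited lists give the summit's fold over local background (a ratio made by the authors with MACS2), its deposited −log10 p and its deposited −log10 q (at least 1.31). They hold no read counts. 8 RNA-seq libraries were not analysed here, and 0 columns were left unused as belonging to no sample.

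Peaks were joined and placed by the GENCODE annotation of GRCm38. The fragment number at each summit was recovered from fold and −log10 p to within 0.002, and, for regions in all 8 lists, was scaled by the median log2 ratio to the mean library and compared with limma (trend, Benjamini-Hochberg adjustment, threshold 0.05). Other comparisons of libraries used two-sided exact permutation tests (70 assignments) or sign-flip tests. Lists of equal length kept the peaks with the highest −log10 q. Precision is limited by 4 libraries per genotype and by depth, and the fold over background at promoters differed between the genotypes.

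The members and gene lists were chosen with earlier results of these data known. The rule for names was the 10 members in all 8 libraries with the best worst rank, up to 5 in each direction found in 1 genotype alone or with the lowest limma p, and up to 4 per gene list. Some items that these rules name are not reported here. Alternatives are described with their effect. 8 of them, and the division by CpG ratio, were added with the values known. The tests and the motif search were checked on simulated data. Sequences are from RefSeq GRCm38. The work used R 4.3.3 with limma 3.58.1, samtools 1.23.1, and Python 3.11.15 with scipy 1.17.1, pandas 2.3.3, pysam 0.24.0, numpy 2.4.6 and matplotlib 3.10.9.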

Additional observations from a re-analysis of the deposited data

Results flagged for a closer look

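In 5 of 88 sets of 4 libraries of 1 genotype, 1 library stood apart from the other 3 by a larger part of the range than Dixon's critical value. Chance gives about 1 such set in 20. In detection of the intronic regions minus that of deep introns, Brg1 fl/fl replicate 4 was at 7.74 points and the others at 5.06 to 5.40 (gap over range 0.872). In the share of detected regions with RUNX letters, Brg1 fl/fl replicate 2 was at 1.38% and the others at 3.55% to 3.67% (0.947). In the share with ETS-IRF letters, Brg1 fl/fl replicate 3 was at 5.08% and the others at 4.10% to 4.15% (0.950). In the share with OCT letters (ATGCAAAT), Brg1 fl/fl replicate 2 was at 0% and the others at 1.09% to 1.21% (0.901). At Uxs1, the scaled log2 summit fragments of Brg1 fl/fl replicate 2 were 5.40 and those of the others 4.38 to 4.52 (0.868). Replicate 2 was the shortest Brg1 fl/fl list.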

How the results depend on the processing

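Leaving out 1 library at a time moved the Brg1 fl/fl minus Brg1 fl/+ difference in detection over -30.6 to -11.4 points, the difference to promoters over -15.4 to -8.94, to deep introns over -2.01 to -0.608, to near intergenic regions over -1.14 to 0.223, and the share of peaks over -2.83 to -0.927. Region counts moved over 974 to 1606, those only in Brg1 fl/+ over 17 to 47, only in Brg1 fl/fl over 1 to 7, in fewer Brg1 fl/fl libraries over 579 to 1265 and in more over 199 to 293. Counts by limma moved over 4 to 11 (lower) and 11 to 20 (higher), and the median log2 difference over 0.024 to 0.068. Without Brg1 fl/+ replicate 1, 579 had fewer and 281 more.

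The difference to deep introns (-1.37 points) turned sign with −log10 q of at least 10 (5.94), the same number of peaks per library with or without repeat-rich regions (6.41), protein-coding start sites (0.185), self-repeating regions left out (5.41), left out after equal lists (15.9) and removed before them (19.5), and was -3.45 for regions reaching no promoter window. The difference to near intergenic regions was 1.93 with the same number of peaks, 0.119 with self-repeating regions left out after it and 3.21 with them removed first. The order of these steps decided the difference in detection, -10.03 points (exact permutation test, p = 0.0286) when left out after and -3.66 (exact permutation test, p = 0.257) when removed first. The share of peaks differed by -0.538 points when left out after.

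Regions numbered 597, 414, 334 and 280 with −log10 q of at least 10, the same number of peaks, and self-repeating regions left out after or removed before it. Under these, 3, 7, 7 and 4 were only in Brg1 fl/+, 449, 166, 155 and 99 had fewer and 50, 136, 73 and 77 more Brg1 fl/fl libraries. Other counts that moved were 9 and 2 in 1 genotype alone with peaks covering 50% of a region, 69 and 22 with libraries joined in pairs, 0 only in Brg1 fl/fl with protein-coding start sites, at most 5 kb or without self-repeating regions, 788 fewer and 132 more at most 5 kb, and 89 more without self-repeating regions.

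By limma, 4 were lower when scaled by promoters, on the deposited fold, with joined pairs, with a wider promoter or for regions reaching no promoter window, and 0 by percent rank (20 of 113 at unadjusted p under 0.05). None were higher on the deposited fold or by percent rank, and 8 without self-repeating regions, and the median log2 difference on the deposited fold was -0.15. The calls at Sp100, Gm26759, Mrps27 and Slc6a9 were lost by percent rank alone, those at Cldn34d, Dnah14, Gm32624, D5Ertd579e and Uxs1 by percent rank and deposited fold, and that at Oxsr1 under 11 of 23 alternatives. No motif passed under any alternative.

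The replicate numbers did not pair the libraries (correlations of deviations from -0.062 to -0.0068). With the replicate block limma called 6 lower and 16 higher, and the exact p was 0.5 for detection and 0.125, the smallest possible, for the difference to promoters. With libraries joined in pairs the smallest possible p is 0.333. Depth limits detection of regions near the threshold of a list.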
